A study of Mus musculus with 18 samples.

Results

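A set of 10 genes of resident macrophages and other leukocytes of the kidney was followed in the RNA of mouse offspring whose mothers had been fed a low-protein or a normal-protein diet. Their names were given as a list, with no threshold on their values, and they are 10 of the 78239 genes counted. Their roles are the surface receptors and lysosomal protein by which macrophages are recognized (*Adgre1*, *Cd68*, *Mrc1*), the 3 chains of complement C1q (*C1qa*, *C1qb*, *C1qc*), a growth factor and its receptor (*Csf1*, *Csf1r*), the leukocyte common antigen (*Ptprc*), and the invariant chain of MHC class II (*Cd74*). All 10 passed the filter on low counts, which asks for 10 reads or more of a gene in each library.

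The RNA came from a piece of the left kidney of wild-type outbred CD-1 mice aged 6 wk, 1 library per mouse, and what share of cortex, medulla, or adhering fat each piece held is not given. The diet of the LP (low-protein) dams held 8% protein and that of the NP (normal-protein) dams 18%, from mating to weaning, and all offspring ate the NP diet afterward. There were 5 males and 5 females from LP dams, and 5 males and 3 females from NP dams. All mice, controls included, had been injected with cationic ferritin and perfused with saline. Males were killed 90 min and females 24 h after the last injection, so sex and time since injection cannot be told apart in any comparison of males with females.

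Resident macrophages settle in the kidney before birth or are replaced from blood monocytes, and they lie between the tubules. Their growth and survival depend on CSF1R, the receptor for the growth factors CSF1 and IL-34, which are made by other cells of the tissue. They are also a main source of C1q, the protein that starts the classical complement pathway. In RNA of whole tissue, a lower level of a cell type's gene can mean fewer of those cells or less RNA in each cell, and the 2 cannot be told apart.

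Gene counts summed to 14050486 in the shallowest library, 16747971 in the median one, and 23562411 in the deepest. Levels are in CPM, counts scaled to the library's total with TMM factors, and levels of different genes are compared only per kilobase of exon (RPKM). When the libraries were clustered on 12665 genes, LP female 1, LP female 2, and NP female 3 separated first from the other 15. Calls between males and females, and the larger values of single genes in females, are therefore also given without them. These 3 libraries are named one by one, since they were grouped by their RNA and not by a label, and no test was run between them and the rest. The authors drew the adult mice from fewer litters than mice, so some were littermates, and the labels do not say which. Diet was fed to the dams and litter was not in the models, so p-values measure the spread between these mice, not between litters.

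Per kilobase of exon, *Cd74* was the most abundant of the 10 genes, with a median of 34.8 RPKM over the 18 libraries, and it was above the next gene in 18 of 18. *Csf1* had a median of 13.5 RPKM and *Csf1r* of 9.30 RPKM, but *Csf1* was above *Csf1r* in only 12 of 18 libraries, so this pair has no settled order. *C1qa* (6.76 RPKM) was above *C1qc* (2.73 RPKM) in 18 of 18. *Cd68* (1.94 RPKM) and *C1qb* (1.79 RPKM) were close, with *Cd68* higher in 13 of 18. *Adgre1* (1.01 RPKM), *Ptprc* (0.452 RPKM), and *Mrc1* (0.248 RPKM) had the lowest levels. The annotated exons of *Ptprc* and *C1qb* are long, at 18764 and 6246 bases, and a gene whose transcripts use only part of its annotated exons is understated on this scale. *Csf1r* is understated too, since 1461 of its 7361 exon bases are shared with *Hmgxb3*, and reads there were left out.

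**Figure D1:**
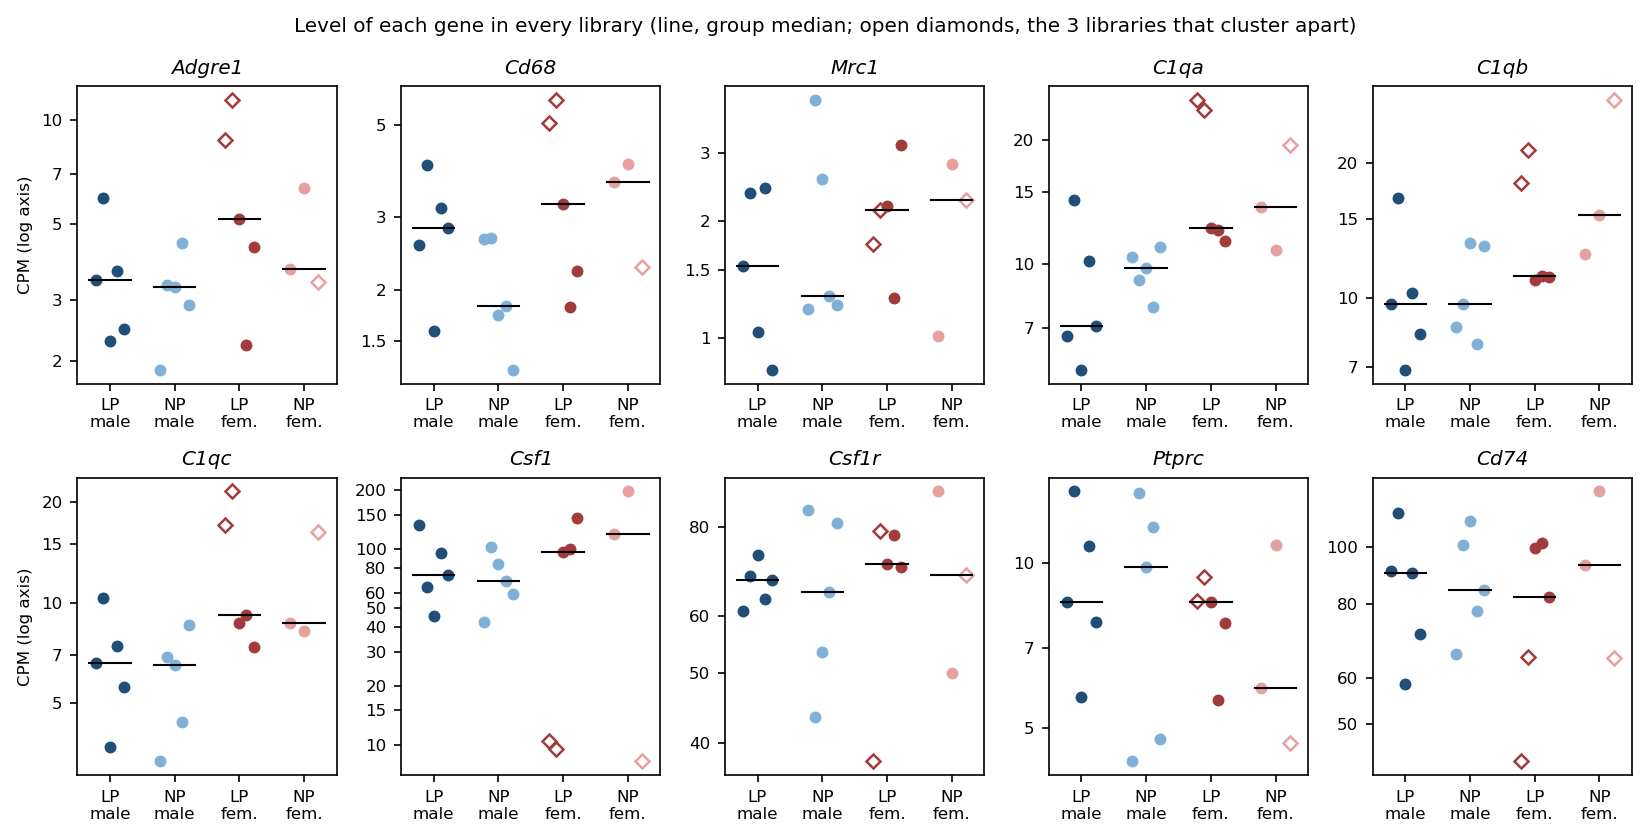
Level of each of the 10 genes in CPM (log axis, a scale of its own for each gene) in every library, by group, with the group median as a line. The open diamonds are LP female 1, LP female 2, and NP female 3, which lie lowest for *Csf1*, between 8.22 and 10.4 CPM, and highest for *C1qa*, *C1qb*, and *C1qc*.

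The labelled cell type was checked against other macrophage markers. *Cx3cr1*, the fractalkine receptor of resident kidney macrophages, was between 0.41 and 2.74 CPM in males and between 0.52 and 12.8 CPM in females. *Timd4*, *Lyve1*, *Folr2*, and *Cd163*, which mark other resident populations, reached at most 1.33 CPM in any library, and *Vsig4* was at 0 in 16 of 18. Of 27 other macrophage genes, 14 passed the filter on low counts, among them *Lgmn*, a lysosomal enzyme that tubule cells also make. The RNA thus holds macrophage genes at low levels, and only a part of the marker list could be tested.

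Whether maternal protein restriction altered these genes in males was asked first. None of the 10 genes was a differentially expressed gene (DEG), which required a 1.5-fold difference and an adjusted p below 0.05, against 0.0379% of the 13181 genes tested. None of the 10 reached an unadjusted p of 0.05, which 3.84% of all genes did. For none of the 10 did all LP males lie above or below all NP males, which held for 0.668% of all genes. The median log2 fold change, LP minus NP, was 0.05 over the 10 genes and -0.0039 over all genes.

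None of the 3 macrophage identity genes differed between LP and NP males beyond the spread between mice. *Adgre1*, which encodes the F4/80 antigen, was at 3.44, 5.93, 2.29, 3.65, and 2.49 CPM in LP males 1 to 5 and at 1.89, 3.33, 3.28, 4.40, and 2.91 CPM in NP males 1 to 5. The groups overlapped, and the log2 fold change was 0.16 (SE 0.29) with a 95% confidence interval from -0.47 to 0.79. *Cd68*, a lysosomal membrane protein of macrophages, had the largest difference of the 10 genes in males, at 2.82 ± 0.88 CPM (SD, n = 5) in LP and 2.03 ± 0.61 CPM (SD, n = 5) in NP males. The 2 groups overlapped, the log2 fold change of *Cd68* was 0.47 with an SE of 0.28 (adjusted p = 1.00 in edgeR), and an exact permutation test (two-sided) gave p = 0.167. *Mrc1*, the mannose receptor, had a log2 fold change of -0.35 (SE 0.42) and was below 5 CPM in every library, and its interval was wide, from -1.26 to 0.57.

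The C1q chains, *Csf1*, *Csf1r*, *Ptprc*, and *Cd74* did not pass the test in males either. *C1qa* had 8.75 ± 3.55 CPM (SD, n = 5) in LP and 9.64 ± 1.21 CPM (SD, n = 5) in NP males, which is -0.14 (SE 0.24) as a log2 fold change. *C1qb* had a log2 fold change of -0.03 (SE 0.24) and *C1qc* of 0.17 (SE 0.29). *Csf1* had 82.5 ± 33.7 CPM (SD, n = 5) in LP and 71.4 ± 23.1 CPM (SD, n = 5) in NP males, with an interval of its log2 fold change from -0.40 to 0.81. *Csf1r* had the narrowest interval, from -0.32 to 0.38, and *Cd74* had one from -0.44 to 0.34. The interval of *Ptprc* ran from -0.64 to 0.78. These intervals bound what 5 against 5 mice could show, and for *Csf1r*, *Cd74*, and *C1qb* (-0.54 to 0.49) they leave out a 1.5-fold change in either direction.

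In females, none of the 10 genes was a DEG, and the background was 0.0% of 13510 genes tested, with 564 genes (4.17%) at an unadjusted p under 0.05 in edgeR, 0 of the 10 among them, and 9 DEGs with DESeq2. For none of the 10 did LP and NP females separate completely, as 2.98% of all genes did. The groups of 5 and 3 mice allow an exact permutation p no smaller than 0.0179. *Csf1* had the largest log2 fold change, -0.59 (SE 1.03), with an interval from -2.91 to 1.73. Its LP females were at 10.4, 9.48, 96.3, 100.2, and 144 CPM and its NP females at 120, 199, and 8.22 CPM, so that each diet group held both low and high libraries. Without LP female 1, LP female 2, and NP female 3, *Csf1* was at -0.48 (SE 0.26) on the log2 scale (edgeR adjusted p = 0.972).

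The other 9 genes had log2 fold changes in females between -0.34 (*C1qb*) and 0.50 (*Adgre1*). *Adgre1* was at 8.75, 11.5, 5.16, 2.23, and 4.28 CPM in LP females 1 to 5 and at 3.704, 6.33, and 3.40 CPM in NP females 1 to 3. The 2 highest values were those of LP female 1 and LP female 2, and without the 3 libraries that cluster apart the log2 fold change was -0.35 (SE 0.41). *Cd68* went from 0.12 (SE 0.42) to -0.65 (SE 0.33) in the same way. Neither value passed the test, with an adjusted p of 0.972 for both in edgeR.

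Whether diet acted unlike in males and females was tested by an interaction term with all 4 groups in the model, and 0 of the 10 genes passed, against 0.0158% of 12665 genes. The adjusted p of the 10 genes was between 0.977 and 0.996 in edgeR. *Csf1* had the largest difference, -0.80 on the log2 scale (SE 1.04), females minus males, and -0.69 (SE 0.47) without the 3 libraries that cluster apart. *C1qc* had the smallest, 0.04 (SE 0.52).

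**Figure D2:**
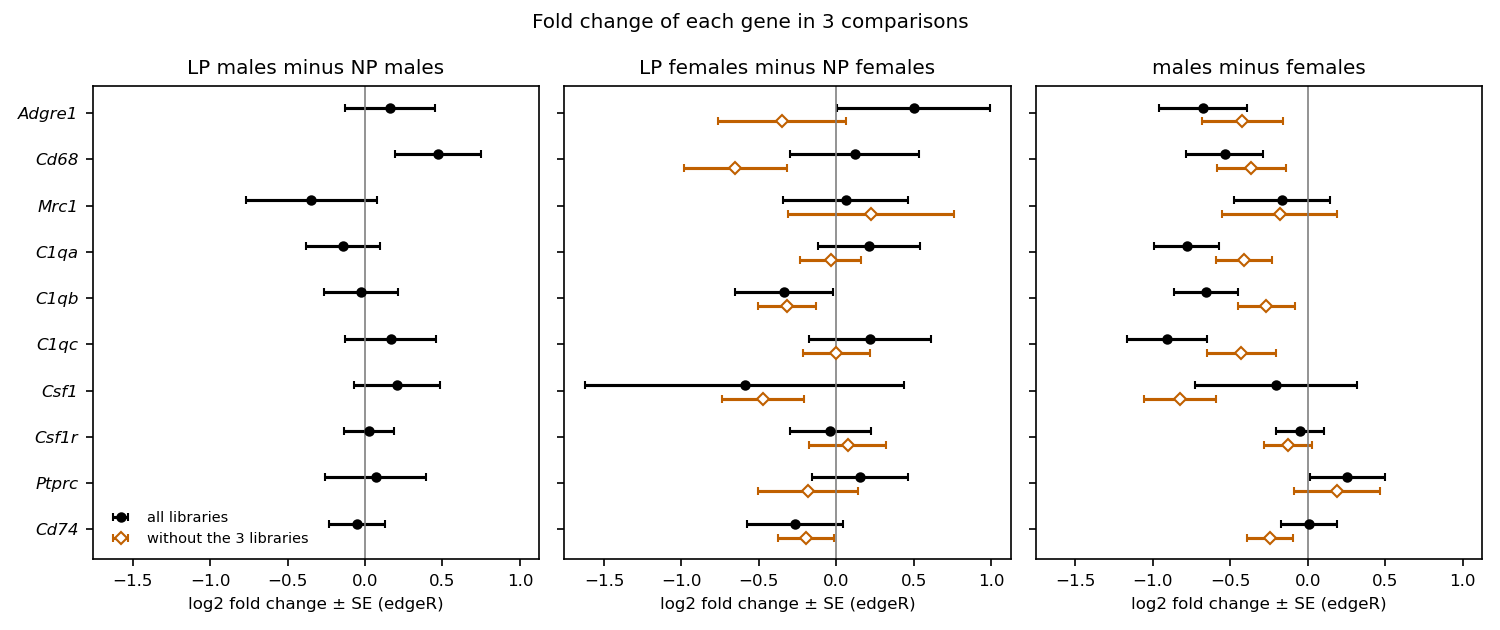
Log2 fold change with its SE from edgeR for the 10 genes, LP minus NP in males, LP minus NP in females, and males minus females, with all libraries (filled circles) and without LP female 1, LP female 2, and NP female 3 (open diamonds, only where females enter). The 3 C1q chains lie at -0.78, -0.66, and -0.91 in males minus females and closer to 0 without the 3 libraries, where *Csf1* moves from -0.21 to -0.83.

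Between males and females, *C1qa*, *C1qb*, and *C1qc*, the chains that assemble into complement C1q, were DEGs, each lower in males. They were 3 of the 10 genes against a background of 18.7% of 12665 genes in either direction and 11.5% lower in males. A count of 3 in 10 is close to that background, so it says little of the 10 genes as a set. *C1qa* was 1.72-fold lower in males, *C1qb* 1.58-fold, and *C1qc* 1.88-fold. None of the 3 separated the sexes completely, as 8.4% of all genes did.

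*C1qa* (chr4:136623223-136626161, minus strand, GRCm39) was at 6.67, 14.3, 5.52, 10.2, and 7.08 CPM in LP males 1 to 5 and at 10.4, 9.14, 9.78, 7.86, and 10.98 CPM in NP males 1 to 5. It was at 25.2, 23.7, 12.3, 12.1, and 11.4 CPM in LP females 1 to 5 and at 13.8, 10.8, and 19.5 CPM in NP females 1 to 3. The highest male, LP male 2, was above 5 of the 8 females, and the 3 highest values of all were those of LP female 1, LP female 2, and NP female 3. Males minus females, the log2 fold change was -0.78 with an SE of 0.21 (adjusted p = 0.00706 in edgeR). Exact permutation of males and females (two-sided) gave p = 0.00151 on log2(CPM + 1), or 0.0363 adjusted over 30 tests (10 genes in 3 comparisons).

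*C1qc* (chr4:136616466-136620376, minus strand) was between 3.35 and 10.3 CPM in males, with a median of 6.55, and between 7.38 and 21.5 CPM in females, with a median of 8.95. The log2 fold change of *C1qc* was -0.91 with an SE of 0.26 (adjusted p = 0.00983 in edgeR), and the exact permutation test gave p = 0.00242, or 0.0363 adjusted over the 30 tests. *C1qb* (chr4:136606009-136613511, minus strand) was between 6.88 and 16.7 CPM in males, with a median of 9.68, and between 10.9 and 27.8 CPM in females, with a median of 13.9. The log2 fold change of *C1qb* was -0.66 with an SE of 0.21 (adjusted p = 0.0191 in edgeR), but by exact permutation its p of 0.0129 became 0.129 after adjustment over the 30 tests. The call for *C1qb* was lost without NP female 3 (adjusted p = 0.0857) and fell below 1.5-fold without LP female 2, whereas *C1qa* and *C1qc* stayed DEGs whichever single library was left out. With limma-voom, where *C1qb* had an adjusted p of 0.105, 2 of the 10 genes were DEGs against 19.6% of all genes, and in a fit blocked on the replicate number (0.0555) it was 2 of 10 against 17.8%.

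All 3 calls rested on the libraries that cluster apart. *C1qa* in LP female 1, LP female 2, and NP female 3 was at least 1.36 times the highest of the other 15 libraries, *C1qb* at least 1.08 times, and *C1qc* at least 1.57 times. Without these 3, the log2 fold change of *C1qa* was -0.41 (SE 0.18, adjusted p = 0.0860 in edgeR), that of *C1qb* -0.27 (SE 0.18, adjusted p = 0.264), and that of *C1qc* -0.43 (SE 0.22, adjusted p = 0.143). The direction was kept, and 0 of the 3 chains passed. Within NP mice, the log2 fold changes of the chains were -0.60, -0.81, and -0.88 for *C1qa*, *C1qb*, and *C1qc*, and within LP mice -0.95, -0.49, and -0.93, and again 0 of them passed, in smaller groups where 6.62% (NP) and 5.9% (LP) of all genes were DEGs lower in males.

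The genes of the 3 chains lie side by side on chromosome 4, and their reads were set against each other. Of the reads counted on the 3 genes, *C1qa* held 29.1% to 46.6%, with a median of 35.5%, *C1qb* 29.97% to 44.9%, with a median of 38.7%, and *C1qc* at most 32.3%, with a median of 25.9%. These shares are not scaled to exon length (1610, 6246, and 2860 bases, in the same order), so they do not rank the chains by level. The sum of the 3 was between 295 and 1344 reads per library, and the lowest share of *C1qc*, 48 of 320 reads in NP male 1, had an exact 95% binomial interval from 11.3% to 19.4%, which covers counting error only. Summed over the 3 genes, C1q was at 60.3 CPM in LP female 1, 66.7 CPM in LP female 2, and 63.5 CPM in NP female 3, against 29.9 to 35.0 CPM in the other 5 females and 16.1 to 41.3 CPM in males. The ratio of C1q counts to *Ptprc* counts was 7.07, 7.07, and 13.6 in these 3 libraries, against 1.73 to 6.85 in the other 15. Relative to *Adgre1*, the C1q ratio was 6.88, 5.82, and 18.7, against 4.57 to 14.5 in the other 15. LP female 1 and LP female 2 thus lay within the range of the other 15, and NP female 3 had high C1q without high *Adgre1*.

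The stretch before the start site is shown for the 2 C1q genes that the RefSeq promoter table (GRCm38.p6) holds, since all 3 chains were called lower in males. The capitals mark the core motif of the macrophage transcription factor PU.1, spelled GAGGAA, or TTCCTC on the other strand. It occurs 1 time in each sequence, 30 bases before the start site of *C1qb* and 193 bases before that of *C1qc*, counted to the first base of the match. Of 32851 promoter stretches of 250 bases, 23.3% hold it on one strand or the other, so a match is common.
C1qb, chr4:136886201-136886450, minus strand, GRCm38.p6: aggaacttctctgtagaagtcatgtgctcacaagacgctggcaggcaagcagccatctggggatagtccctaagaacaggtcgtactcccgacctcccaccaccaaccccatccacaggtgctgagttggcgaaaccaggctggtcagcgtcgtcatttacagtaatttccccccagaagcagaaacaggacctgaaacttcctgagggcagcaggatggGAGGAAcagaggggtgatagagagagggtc
C1qc, chr4:136892915-136893164, minus strand, GRCm38.p6: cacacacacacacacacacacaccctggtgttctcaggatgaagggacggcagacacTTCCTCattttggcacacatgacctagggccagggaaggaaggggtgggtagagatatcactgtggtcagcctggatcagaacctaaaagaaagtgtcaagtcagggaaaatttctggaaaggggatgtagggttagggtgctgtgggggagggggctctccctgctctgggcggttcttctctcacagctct
Of the 6 members in the table, *Cd68*, *Ptprc*, and *Mrc1* also hold the motif in a promoter stretch, and *Csf1* does not.

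*Adgre1* and *Cd68* were lower in males without passing the test. *Adgre1* (chr17:57665573-57790527, plus strand) had a median of 3.31 CPM in males and 4.72 CPM in females, with -0.68 (SE 0.28) as the log2 fold change and 0.0677 as the adjusted p in edgeR. With DESeq2's Wald test its adjusted p was 0.0467, which made 4 of the 10 genes DEGs against 19.1% of all genes. *Cd68* (chr11:69555037-69557067, minus strand) had an adjusted p of 0.0982 in edgeR and -0.54 (SE 0.25) as its log2 fold change. The highest *Adgre1* and *Cd68* values of all were those of LP female 1 and LP female 2, at 8.75 and 11.5 CPM and at 5.07 and 5.76 CPM, but NP female 3 was low for both, at 3.40 and 2.27 CPM. Without LP female 4, *Adgre1* (adjusted p = 0.0188) and *Cd68* (0.0433) both passed in edgeR, and without LP male 2 *Adgre1* passed alone (0.0303). Without the 3 libraries that cluster apart, *Adgre1* was at -0.42 (SE 0.26) and *Cd68* at -0.36 (SE 0.22) on the log2 scale, and neither passed.

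*Csf1* (chr3:107648364-107667806, minus strand) varied more than any other member over all 18 libraries. Within groups, its SD of log2(CPM + 1) was 1.40, which ranked 42 among 12665 genes. Over the 15 libraries other than those that cluster apart, its SD was 0.498, against 0.517 for *Ptprc* and 0.493 for *Mrc1*. In LP males 1 to 5 *Csf1* was at 134, 64.5, 45.5, 95.3, and 73.7 CPM, and in NP males 1 to 5 at 42.3, 102, 84.4, 68.9, and 59.0 CPM. LP female 1, LP female 2, and NP female 3 were at 10.4, 9.48, and 8.22 CPM, below every other library, and the lowest of the other 15 was 4.07 times the highest of them. The other 5 females were between 96.3 and 199 CPM.

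*Csf1* did not pass the test between the sexes over all libraries, and the measures differed in sign. The edgeR log2 fold change, males minus females, was -0.21 (SE 0.52, interval -1.31 to 0.89), whereas the difference in mean log2(CPM + 1) was 0.57 (exact two-sided permutation, p = 0.373). Without the 3 libraries, *Csf1* was lower in males at -0.83 (SE 0.23) on the log2 scale (adjusted p = 0.0112 in edgeR), and it was then the 1 DEG among the 10 genes, against 19.2% of 12949 genes. This call was not made with any single library left out. The 3 libraries were grouped by their RNA, are all females, and held the 3 lowest *Csf1* values. Leaving them out therefore raises the female level, and the adjusted p does not allow for that choice.

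*Il34*, which encodes the other ligand of CSF1R, was a DEG and higher in males. It was 40.6 to 78.0 CPM in males, 18.4 to 38.2 CPM in the other 5 females, and 5.90 to 10.3 CPM in LP female 1, LP female 2, and NP female 3. Males minus females, its log2 fold change was 1.49 with an SE of 0.30 (adjusted p = 0.000832 in edgeR), and it stayed a DEG at 1.06 (SE 0.18) without the 3 libraries that cluster apart. Of the 9 other genes of the CSF1 pathway and of myeloid growth factors, 7 were tested, with *Il34* the 1 DEG higher in males and *Csf2ra*, a receptor chain for GM-CSF, the 1 lower in males, at -0.61 (SE 0.13) on the log2 scale. Without the 3 libraries, *Csf2ra* was at -0.53 (SE 0.14), under the 1.5-fold limit. *Irf8*, a transcription factor of monocytes and macrophages, passed the adjusted p but not the 1.5-fold limit, at -0.57, and was a DEG at -0.74 (SE 0.14) without the 3 libraries.

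The genes most like *Csf1* across libraries were *Icam1*, *Vcam1*, and *Cd274*, which encode adhesion molecules of activated endothelium and the ligand PD-L1. With group means removed, Pearson's r with *Csf1* was 0.99 for each of the 3 over 18 libraries, where the 3 libraries that cluster apart pull all values together. Over the other 15 libraries, r was 0.96 for *Icam1*, 0.97 for *Vcam1*, and 0.94 for *Cd274*, which ranked 3, 1, and 7 among all genes tested. *Icam1* was between 4.60 and 11.5 CPM in the 3 libraries and between 58.2 and 263 CPM in the others. The same holds for *Vcam1*, at 3.47 to 8.89 CPM against 31.7 to 182 CPM, and for *Cd274*, at 2.83 to 4.39 CPM against 14.9 to 101 CPM.

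**Figure D3:**
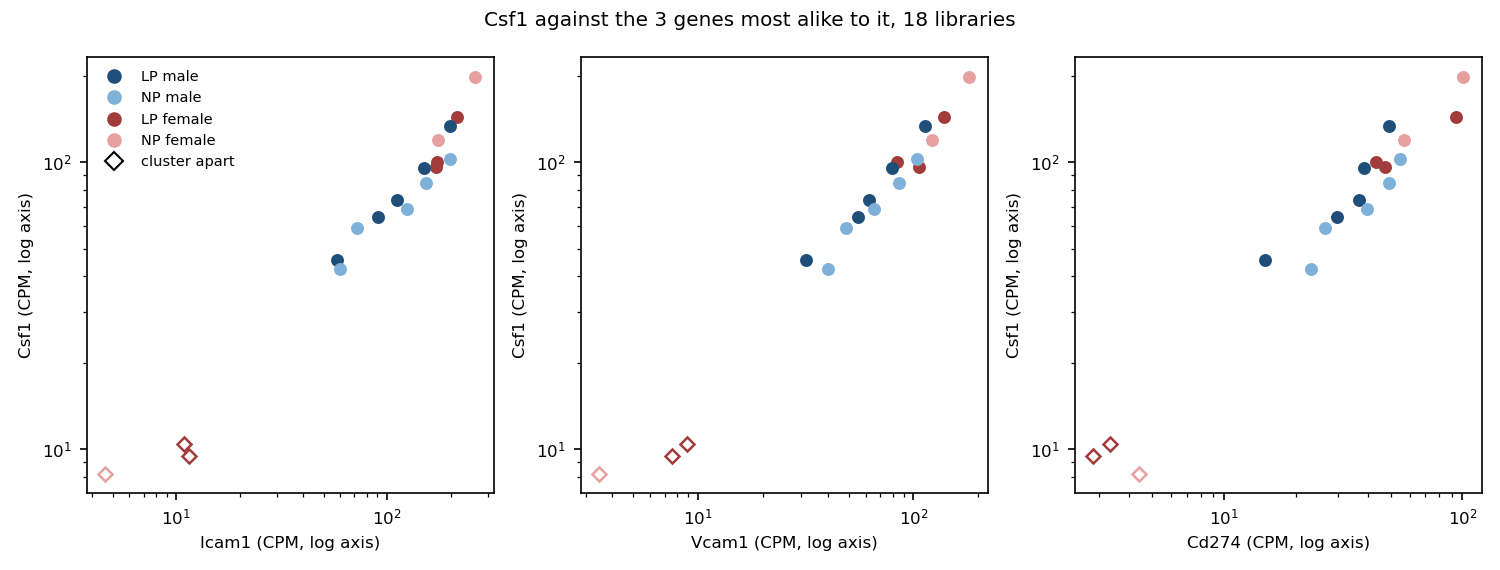
*Csf1* against *Icam1*, *Vcam1*, and *Cd274* in the 18 libraries, in CPM on log axes, colored by group, with open diamonds for the libraries that cluster apart. The 15 other libraries lie along one line in each panel, from 42.3 to 199 CPM of *Csf1*, and the 3 diamonds lie far below, between 8.22 and 10.4 CPM.

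The *Csf1* promoter stretch in the RefSeq table is shown because *Csf1* had the widest range of the 10 genes over all 18 libraries. Over the 15 libraries other than those that cluster apart, its highest value was 4.69 times its lowest, against 4.97 times for *Mrc1*. The capitals mark a match to the NF-kappaB motif spelled as GGGAA, 3 bases of any kind, and CC, searched on both strands. It begins 155 bases before the start site, and 4.94% of the 32851 promoter stretches hold such a match.
Csf1, chr3:107760470-107760719, minus strand, GRCm38.p6: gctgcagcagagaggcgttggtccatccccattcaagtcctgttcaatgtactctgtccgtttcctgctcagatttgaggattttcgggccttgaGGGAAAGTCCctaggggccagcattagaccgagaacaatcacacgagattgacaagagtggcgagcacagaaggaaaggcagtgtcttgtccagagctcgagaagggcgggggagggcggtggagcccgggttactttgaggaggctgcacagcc
The interferon motifs, a repeat of TTTC with 2 bases between (in 2.98% of promoter stretches) and TTC and GAA with 3 bases between (in 7.02%), were not matched in it. *Icam1* held 1 match to the second of them, 42 bases before its start site, and no NF-kappaB match of this spelling, and the *Cd274* stretch held none of the motifs.

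*Csf1r* (chr18:61229714-61266535, plus strand) encodes the receptor that macrophages need for survival. It was between 43.4 and 84.4 CPM in males, with a median of 66.1, and between 37.7 and 89.7 CPM in females, with a median of 70.6. The log2 fold change, males minus females, was -0.05 (SE 0.16), and neither diet comparison passed the test. LP female 1 was lowest of all at 37.7 CPM, next to LP females 2 to 5 at 79.0, 71.0, 78.0, and 70.2 CPM.

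Across the 15 libraries other than those that cluster apart, *Csf1r* was lower where *Csf1* and *Mrc1* were higher. With group means removed, its correlation with *Csf1* was r = -0.77 (Spearman's rho = -0.86). The permutation p-values were 0.00012 and 0.00033, or 0.0027 and 0.00743 adjusted over 45 pairs of the 10 genes. Without the 2 libraries farthest from the median of *Csf1r*, r was -0.72. With *Mrc1*, r was -0.81 (permutation p = 0.0019, adjusted 0.0285) and rho -0.77 (p = 0.0105, adjusted 0.0826). Without the 2 libraries farthest from the median of *Csf1r*, r with *Mrc1* was -0.67. With *Ptprc*, r was -0.79 (permutation p = 0.0101, adjusted 0.0570) and rho -0.72 (p = 0.0315, adjusted 0.118), so this pair did not pass the correction. Over the 10 males alone, r was -0.77 with *Csf1*, -0.79 with *Mrc1*, and -0.78 with *Ptprc*. Over all 18 libraries, r with *Csf1* was 0.03 (rho = -0.12) and over the 8 females 0.22, so that relation did not hold with the 3 libraries that cluster apart included, whereas r was -0.54 with *Mrc1* and -0.60 with *Ptprc* over the 18. With *C1qa*, r was 0.22 over the 15 libraries, and with *C1qb*, *C1qc*, and *Cd68* it was between -0.28 and -0.17, none of them passing.

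**Figure D4:**
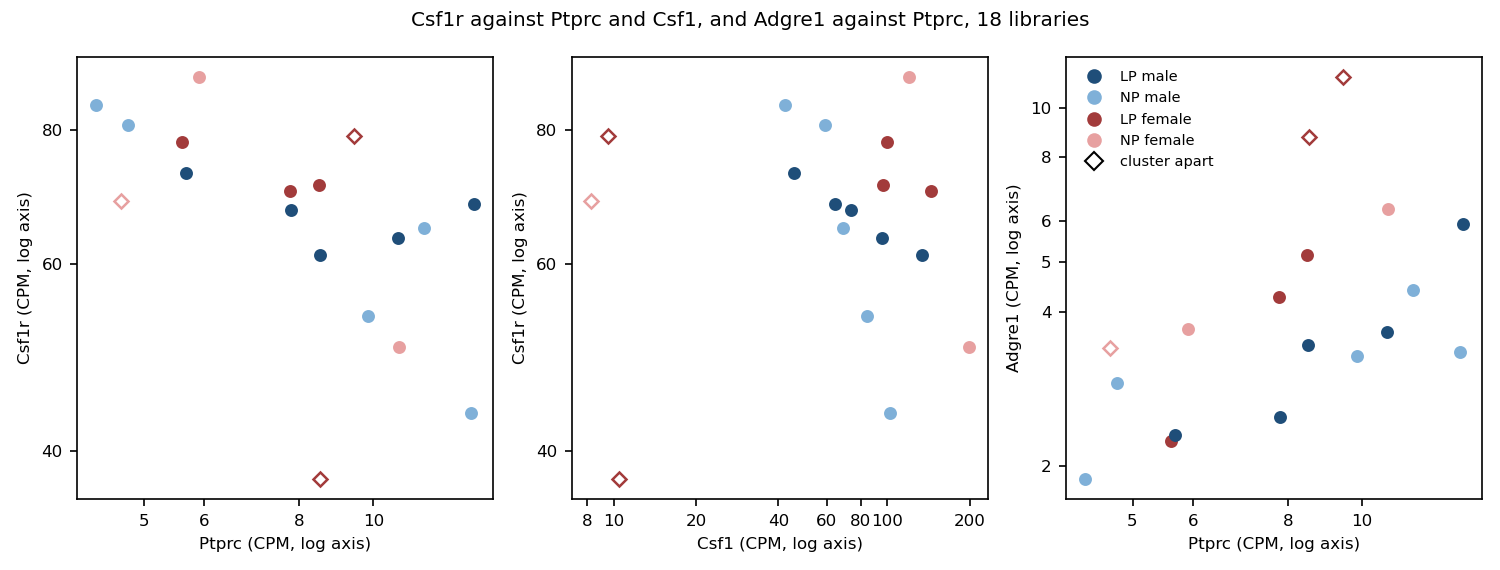
*Csf1r* against *Ptprc* and against *Csf1*, and *Adgre1* against *Ptprc*, in CPM on log axes, 1 point per library, with open diamonds for the libraries that cluster apart. Among males, *Csf1r* is highest at 84.4 CPM, in the male with the lowest *Ptprc* (4.33 CPM), and lowest at 43.4 CPM, in a male with high *Ptprc*, whereas *Adgre1* and *Ptprc* go up together in the 15 filled points.

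The genes most like *Csf1r* were *Napsa*, *Mccc2*, and *Chst7*, none of them a macrophage marker. *Napsa*, an aspartic protease known from proximal tubules, had r = 0.95 with *Csf1r* over 18 libraries and 0.93 over the other 15, and a mean of 1912 CPM. *Mccc2*, a subunit of a mitochondrial carboxylase of leucine breakdown, had r = 0.93 and 0.89. The end of *Csf1r* overlaps *Hmgxb3* on the opposite strand over 1461 exon bases, and the counts do not separate strands. Reads on these shared bases fall on no single gene and were left out of both. *Hmgxb3* itself was between 18.1 and 34.1 CPM, and its r with *Csf1r* was -0.51 over 18 and -0.72 over 15 libraries. Which cells of these kidneys the *Csf1r* reads came from was not tested.

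*Ptprc* (chr1:137990599-138103446, minus strand), which encodes CD45 on all nucleated blood cells, was between 4.33 and 13.6 CPM in males, with a median of 9.17, and between 4.68 and 10.8 CPM in females, with a median of 8.13. It was the 1 member besides *Cd74* whose log2 fold change was above 0 between the sexes, at 0.26 with an SE of 0.24 (edgeR adjusted p = 0.434). LP female 1, LP female 2, and NP female 3, at 8.52, 9.43, and 4.68 CPM, lay within the range of the other females for 2 of 3, and they held no more *Ptprc* than the rest while their C1q was highest. Over the other 15 libraries *Ptprc* went with *Adgre1*, with r = 0.81 and rho = 0.82 (permutation p = 0.0001 for both, adjusted 0.0027 and 0.0045 over 45 pairs). Without the 2 libraries farthest from the median of *Adgre1*, r was 0.81.

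The genes most like *Ptprc* were *Prickle2*, *Cd53*, and *Tmod3*, with r = 0.94, 0.93, and 0.93 over 18 libraries and 0.96, 0.95, and 0.94 over the other 15. *Cd53* is a tetraspanin of leukocytes, and it was between 1.19 and 6.60 CPM. *Mrc1* (chr2:14234151-14336926, plus strand) also went with *Ptprc* over the 15 libraries, with r = 0.77 (permutation p = 0.00739, adjusted 0.0475) and rho = 0.72 (p = 0.00981, adjusted 0.0826). *Mrc1* had the lowest counts of the members, from 15 to 78 per library, and was highest in NP male 2 (4.12 CPM), LP female 5 (3.15 CPM), and NP female 2 (2.81 CPM). *Plin1*, which coats the lipid droplets of fat cells, was at 8.24, 22.1, and 2.15 CPM in these 3 libraries. It was at 12.4 CPM in LP male 4, 10.3 CPM in NP male 3, and 18.6 CPM in NP female 3, and at 0.51 CPM or less in the other 12. The part of fat tissue in the *Mrc1* values was not tested.

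*Cd74* (chr18:60936899-60945731, plus strand) was between 58.6 and 114 CPM in males, with a median of 87.4, and between 43.3 and 124 CPM in females, with a median of 87.7. Males and females covered much the same range, with a log2 fold change of 0.01 (SE 0.18, interval -0.37 to 0.38). LP female 1, LP female 2, and NP female 3 had 43.3, 65.0, and 64.8 CPM, below the other 5 females, which were at 82.1 CPM or more, but within the male range for 2 of 3. Over the other 15 libraries, *Cd74* went with *C1qc* (r = 0.81, permutation p = 0.00361, adjusted 0.0406, rho = 0.75, p = 0.0124, adjusted 0.0826) and with *C1qb* (r = 0.81, permutation p = 0.00574, adjusted 0.0431, rho = 0.75, p = 0.0149, adjusted 0.0838). Without the 2 libraries farthest from the median of the C1q gene of the pair, these were r = 0.64 and 0.65. In the 3 libraries that cluster apart this relation did not hold, since C1q was highest there and *Cd74* low.

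*H2-Eb1*, a chain of the MHC class II molecule that CD74 guides, was the gene most like *Cd74*, with r = 0.93 over 18 libraries and 0.87 over the other 15. Of 10 other MHC class II genes, 6 were tested between the sexes, and 2 were DEGs, both lower in males, where 11.5% of all genes were. These were *H2-DMb2*, at -1.94 (SE 0.34) on the log2 scale with an edgeR adjusted p of 0.000274, and *H2-DMa*, at -0.73 (SE 0.20) with 0.00820, chains of the molecule that loads peptides. Without the 3 libraries that cluster apart, *H2-DMb2* stayed a DEG at -1.09 (SE 0.22) and *H2-DMa*, at -0.50 (SE 0.21), did not. In the diet comparisons, 0 of the 7 tested were DEGs in males and 0 of 7 in females. LP minus NP, 2 of the 7 had a log2 fold change above 0 in males (median -0.09) and 1 of 7 in females (median -0.46). The female values include the 3 libraries that cluster apart and are not given without them. *H2-Eb1* was between 12.4 and 30.2 CPM in those libraries and between 32.8 and 55.9 CPM in the other 5 females. The median over all genes was -0.0039 in males and -0.013 in females.

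**Figure D5:**
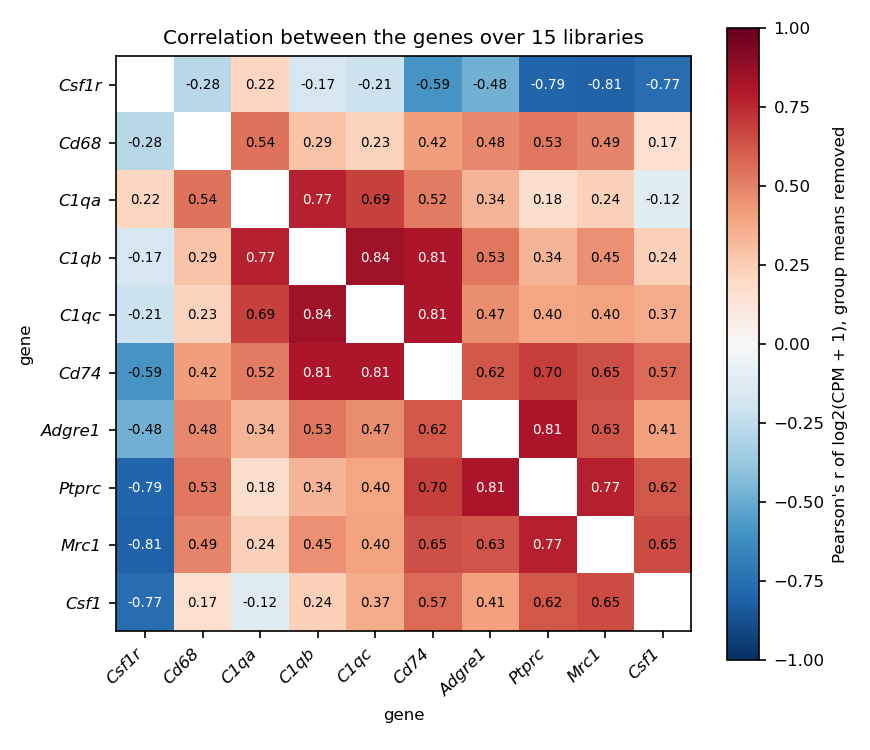
Pearson's r of log2(CPM + 1) with group means removed between each pair of the 10 genes over the 15 libraries other than LP female 1, LP female 2, and NP female 3, with red for positive and blue for negative values. *Csf1r* is negative with 8 of the 9 other genes, down to -0.81 with *Mrc1*, whereas the C1q chains are positive with one another, from 0.69 to 0.84.

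Likeness among the C1q chains was uneven. *C1qb* and *C1qc* had r = 0.84 over the 15 libraries (permutation p = 0.00573, adjusted 0.0431, rho = 0.78, p = 0.0105, adjusted 0.0826). Without the 2 libraries farthest from the median of *C1qb*, r was 0.72. *C1qa* had r = 0.77 with *C1qb* and 0.69 with *C1qc* over the 15 libraries (permutation p = 0.0134 and 0.0190, adjusted 0.0669 and 0.0779), which did not pass the correction. Without the 2 libraries farthest from the median of *C1qa*, r was 0.36 and 0.34. *Tyrobp*, a signaling adaptor of myeloid cells, was among the 3 genes most like both *C1qb* (r = 0.89 over 18 and 0.84 over 15 libraries) and *C1qc* (0.90 and 0.82). Also among the closest were *Ggh*, a lysosomal hydrolase of folates, for *C1qc* (0.93 and 0.91, rank 1) and *E2f1*, a cell cycle transcription factor, for *C1qb* (0.89 and 0.77). No C1q chain was among the 3 genes most like *C1qa*, which were *Coro1a*, *Abhd8* (0.91 and 0.83), and *Otulinl* (0.88 and 0.85). *Coro1a*, an actin-binding protein of leukocytes, was most like it (0.92 and 0.81), with 15.2 to 19.3 CPM in the 3 libraries that cluster apart and at most 13.8 CPM elsewhere. *Adgre1* was most like *Taf6* (r = 0.94 over 18, 0.92 over 15), *Nrros* (0.94 and 0.89), a microglia and macrophage protein, and *Cd300lg* (0.92 and 0.86). *Cd68* was most like *Poc5* (0.91 and 0.81), and *Mrc1* most like *Gja1* (0.86 and 0.90).

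Genes of other leukocytes were examined as a background to these values. Of 14 other pan-leukocyte genes, 12 were tested between the sexes and 4 were DEGs, all lower in males, where 11.5% of all genes were, and 5 of the 12 had a log2 fold change above 0. The 4 were *Dock2* at -1.39 (SE 0.24), *Fermt3* at -0.76 (SE 0.26), *Cytip* at -0.61 (SE 0.17), and *Arhgdib* at -0.60 (SE 0.18) on the log2 scale. Without the 3 libraries that cluster apart, *Dock2* (-1.70) and *Cytip* (-0.80) stayed DEGs and *Fermt3* (-0.34) and *Arhgdib* (-0.41) did not. The 14 macrophage genes tested held 1 DEG, *Sirpa*, lower in males at -0.97 (SE 0.20) on the log2 scale, with an edgeR adjusted p of 0.00115, and at -0.58 (SE 0.15), under the 1.5-fold limit, without the 3 libraries. Their median log2 fold change was -0.14, against -0.05 over all genes. For diet, 0 of 15 macrophage and 0 of 12 pan-leukocyte genes tested were DEGs in males, and 0 of 16 and 0 of 12 in females. LP minus NP, 14 of the 15 macrophage genes had a log2 fold change above 0 in males. Their median was 0.21, against -0.0039 over all genes. In females 10 of the 16 were above 0, with a median of 0.09, against -0.013 over all genes. Of the 12 pan-leukocyte genes, 8 were above 0 in males (median 0.18) and 11 in females (median 0.29). These female counts and medians include the 3 libraries that cluster apart and are not given without them. The sign in females can depend on those libraries, as for *Ptprc*, at 0.15 with them and -0.18 without them. No list was tested as a whole. Genes of a list can vary together between mice, so their signs are not independent and a single mouse can carry several of them. For example, *Tyrobp* was at 8.15 CPM in LP male 2 and between 1.12 and 3.54 CPM in the other males. The list counts are not given with single mice left out. Few genes of the other leukocyte lists had enough counts, with 7 monocyte and dendritic, 1 T and NK cell, 2 B cell, and 3 neutrophil genes tested for diet in males and 5, 3, 2, and 0 in females, and none of those was a DEG.

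Most lymphocyte genes were too low to test. *Cd3e* of T cells was at or below 0.60 CPM in every library, while the summed list for T and NK cells was between 7.10 and 29.5 CPM and that for B cells between 3.27 and 60.8 CPM. *Trac* and *Jchain*, genes of the T cell receptor and of secreted antibodies, were higher in males by log2 fold changes of 2.79 (SE 0.28) and 4.01 (SE 0.38), and by 2.88 and 4.39 without the 3 libraries that cluster apart. *Trac* was the 1 gene of 15 on the T and NK cell list that could be tested between the sexes, and *Ighm*, the other of the 2 B cell genes tested, was at -0.45 (SE 0.38) and did not pass. Neutrophil genes summed to 1.91 to 3.43 CPM in LP female 1, LP female 2, and NP female 3 and to 7.13 to 27.0 CPM in the other 15. The part of these cells in the levels of *Ptprc* was not tested.

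In LP female 1, LP female 2, and NP female 3, other genes stood apart beside *Csf1* and C1q, and those named here were chosen after their values were seen. *Cx3cr1* was between 9.997 and 12.8 CPM there and at most 2.74 CPM in the other 15 libraries. *Cxcl10*, an interferon-induced chemokine, was between 3.13 and 6.59 CPM against at least 142 CPM elsewhere, and *Ccl2*, which draws monocytes, was between 0.35 and 0.83 CPM against at least 15.02 CPM. *Hmox1*, which breaks down heme, was between 11.3 and 12.1 CPM against at least 26.5 CPM. These 3 mice came from both diet groups and were all females collected at 24 h, and what set them apart was not tested.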

How the data were processed

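The files, as deposited by the authors, hold raw read counts per gene for a piece of the left kidney of each mouse. Per the labels and methods, poly(A) RNA was sequenced from non-directional libraries, reads were aligned to GRCm39 with STAR (version not given in the sources used here), and reads were counted on GENCODE vM36 genes. The column counted without regard to strand was used. Between 28.6% and 36.1% of reads per library fell on no single gene and were left out. For gene positions and exon lengths, GENCODE vM39 (GRCm39) was used, in which 78168 of the listed genes were found.

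A gene was tested where each library in the comparison had 10 counts or more of it, with edgeR 4.0.16 (quasi-likelihood, TMM scaling, R 4.3.3), and p-values were adjusted over all genes tested by the Benjamini-Hochberg method. LP was compared with NP in males and in females apart, males with females by the mean of both diets, and diet by sex by an interaction term. Exact permutation tests (two-sided) of log2(CPM + 1) were run for the 10 genes, and correlations were tested by 100000 permutations. The tests were tried on simulated data. Alternatives were other filters, DESeq2 1.42.0 (size factors or Wald test), limma-voom (limma 3.58.1), the replicate number as a block, all groups in 1 model, 1 diet alone, and libraries left out.

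The 10 genes and the gene lists were chosen with earlier results of these data known. Named beside the 10 are the 3 genes most correlated with each, and from each list the genes with an adjusted p under 0.05 (at most 6) or else the 4 most abundant. *Cx3cr1*, *Timd4*, *Lyve1*, *Folr2*, *Cd163*, *Vsig4*, *Plin1*, *Cd3e*, *Cxcl10*, *Ccl2*, and *Hmox1* were named outside this rule. Deviations of same-numbered LP and NP libraries from their group means correlated at a median of -0.15 in males and -0.44 in females, and the replicate numbers were not taken to pair mice. Some genes that the rule would name are not reported here.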

Additional observations from a re-analysis of the deposited data

Results flagged for a closer look

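In LP females, *Csf1r* was at 37.7 CPM in LP female 1 and between 70.2 and 79.0 CPM in the other 4, a gap large enough to mark LP female 1 as an outlier by Dixon's test. Of 30 such tests over the 10 genes in the groups of 5 mice, this was the 1 that passed, and chance passes about 1 in 20.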

How the results depend on the processing

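None of the 10 genes was called in a diet comparison or in the interaction under any alternative, filter, scaling, or left-out library that was run. Between males and females, 3 of the 10 were called, against 1 without LP female 1, LP female 2, and NP female 3, 0 within NP mice, 0 within LP mice, and 2 to 5 with single libraries left out. Over all genes, 5 genes were called for diet in males, against 9 with no filter, 15 with DESeq2, 1 with all 4 groups in 1 model, and 2 to 6 with single libraries left out. For diet in females 0 were called, against 3 with no filter, 9 with DESeq2, 2 with all 4 groups in 1 model, 1 without the 3 libraries that cluster apart, and 0 to 2 with single libraries left out. For the interaction 2 were called, against 4 with DESeq2, 7 with limma-voom, 0 without the 3 libraries, and 0 to 4 with single libraries left out. Between the sexes 2370 genes were called, 4900 by adjusted p alone, and 2218 to 2616 with single libraries left out. The replicate number as a block left 2 of the 10 genes called between the sexes, 2 genes called for diet in males, and 0 for the interaction.

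Of the 286 log2 fold changes of the 10 genes under alternatives that left out no single library, 253 kept their direction and their side of the threshold, as did 342 of 396 with single libraries left out. Signs that turned belonged to values that passed no test. In males, limma-voom gave *Adgre1* -0.011, *C1qb* 0.0021, and *Ptprc* -0.088. In females, *Csf1r* was 0.0058 with no filter, and limma-voom gave *Cd68* -0.28 and *C1qa* -0.036. Without the 3 libraries, *Adgre1* was -0.35, *Csf1r* 0.073, *Cd68* -0.65, *C1qa* -0.038, *C1qc* -0.00094, and *Ptprc* -0.18 in females, and *C1qc* was -0.18 in the interaction, where limma-voom gave it -0.24. Between the sexes, *Csf1r* was 0.0072 with no filter, *Cd74* -0.050 with limma-voom, -0.25 without the 3 libraries, and -0.094 within NP mice, *Mrc1* 0.042 within NP mice, and *Csf1* 0.20 within LP mice. With single libraries left out, the log2 fold changes that turned in males ran from -0.090 to 0.31 for *Adgre1*, -0.089 to 0.14 for *Csf1r*, -0.029 to 0.37 for *Csf1*, -0.26 to 0.089 for *C1qb*, -0.031 to 0.34 for *C1qc*, -0.10 to 0.28 for *Ptprc*, -0.18 to 0.058 for *Cd74*, and -0.56 to 0.066 for *Mrc1*. In females they ran from -0.54 to 0.068 for *C1qb*, -0.036 to 0.59 for *C1qc*, -0.093 to 0.31 for *Cd68*, -0.47 to 0.013 for *Cd74*, -1.13 to 0.19 for *Csf1*, -0.21 to 0.21 for *Csf1r*, -0.25 to 0.41 for *Mrc1*, and -0.064 to 0.61 for *Ptprc*. They ran from -0.22 to 0.42 for *C1qc* in the interaction, and between the sexes from -0.11 to 0.13 for *Cd74*, -0.50 to 0.18 for *Csf1*, and -0.15 to 0.063 for *Csf1r*. The cause was not tested. *Mrc1* had 15 to 78 counts per library, which limits its precision.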
